A study of Mus musculus with 6 samples.

Results

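The nuclear receptors Nr4a1, Nr4a2, and Nr4a3 were followed through neuronal depolarization in RNA bisulfite sequencing (RNA BS-seq) libraries, in which bisulfite turns unmethylated cytosines into bases read as T, while 5-methylcytosine (m5C) is still read as C. All listed cytosines whose gene column named one of the 3 genes were taken. These were 3025 of 5240657 cytosines listed in at least 1 library, with 726 in Nr4a1, 802 in Nr4a2, and 1497 in Nr4a3, and the 3 genes were among 16850 genes with a listed cytosine. The cells were wild-type C57BL/6 cortical neurons taken from E16.5 embryos of both sexes, pooled, and kept in culture for 1 week. All groups, the 0 h controls included, had first been silenced overnight with 1 μM tetrodotoxin, which blocks sodium channels, and 100 μM DL-AP5, which blocks NMDA receptors. The groups differed in the time under 55 mM KCl, which was 0 h, 2 h, or 6 h, with 2 biological replicates each and 6 libraries of poly(A) RNA in all. Only cytosines covered by at least 10 reads of which at least 1 was unconverted were listed, so a cytosine missing from a library was either thinly covered or fully converted there.

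The libraries listed 1559828 to 2374392 cytosines with a median coverage of 324 to 480 reads. Deeply covered cytosines kept 0.0838% to 0.0870% unconverted reads in 5 libraries and 0.115% in the 6 h replicate 1 library. All 9 neuronal markers, among them Tubb3, Map2, and Snap25, were listed in every library. The 5 astrocyte markers, Gfap included, and the microglial marker Cx3cr1 were also listed in every library, while C1qa and Csf1r of microglia, Cldn5 of endothelium, Mog of oligodendrocytes, and Sox2 of progenitors were listed in none. The cells that carried the Nr4a transcripts were not separated, and in such bulk RNA a change in the number of expressing cells and a change in RNA per cell cannot be told apart.

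The Nr4a genes encode transcription factors of the nuclear receptor superfamily whose ligand pocket is closed by bulky side chains, so that their activity follows their abundance and modification rather than a hormone. They bind the NGFI-B response element as monomers and related palindromes as dimers. In neurons they are immediate early or early response genes, switched on by calcium entry through CREB, SRF, and MEF2 bound near their start sites. Nr4a1 (Nur77) is known for its role in synapse distribution and in T cell selection, Nr4a2 (Nurr1) is required for midbrain dopamine neurons, and Nr4a3 (NOR-1) is the third member.

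The sequences on which the results turn are printed first. On the transcripts, the cytosine with the highest reproducible level in the 4 stimulated libraries and the one that followed it were both in Nr4a2. They were singled out after their values had been seen, and are given with 10 bases on each side in GRCm38, on the minus strand of chromosome 2, with the measured cytosine in capitals.
Nr4a2 5′ UTR, chr2:57114774-57114794: tcccgcggacCcgggctcctc
Nr4a2 CDS, chr2:57111848-57111868: agatgcgcttCgacgggcctc
The first of these has G at all of the positions +2, +3, and +4 counted from the cytosine, and the second has G at 1 of them. In comparison, the cytosine with the highest level over summed reads among those listed in all 6 libraries is shown for each gene, on the plus strand for Nr4a1 and Nr4a3 and on the minus strand for Nr4a2.
Nr4a1 CDS, chr15:101273166-101273186: tgcctgtccgCtctggtcctc
Nr4a2 CDS, chr2:57108562-57108582: gctgccctggCtatggtcaca
Nr4a3 3′ UTR, chr4:48085933-48085953: gctgttccccCttctgtcctc
All of the 3025 cytosines are C on the annotated strand of their gene in GRCm38, and none had another 21-base context in the deposited lists than in that genome.

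Around the starts of the genes, cAMP response elements (CRE), the sites bound by CREB, were searched because the 3 transcripts all rose under KCl. The RefSeq promoter windows ran from 250 bases before to 50 bases after the start (GRCm38.p6). The short CRE was spelled TGACG and was searched on both strands, on which it reads CGTCA. Each of the 3 windows held 4 matches. The RefSeq start of Nr4a3 lies inside transcript Nr4a3-201, which begins at chr4:48045153. Its match at −147 from the RefSeq start therefore lies within that transcript and not upstream of it. At least 1 match was found in 20.8% of 32851 promoters, and 4 or more in 0.231% (76 promoters). Matches are described by their letters only. For Nr4a1 the 2 matches nearest to the start are shown, and for Nr4a3 the 2 nearest to each other, with the match in capitals.
Nr4a1, chr15:101266769-101266789, plus strand: gccgtgtgCGTCAgtggcgcc
Nr4a1, chr15:101266798-101266818, plus strand: tctccatgCGTCAcggagcgc
Nr4a3, chr4:48045084-48045104, plus strand: tcccatgtCGTCAcattgacg
Nr4a3, chr4:48045092-48045112, plus strand: cgtcacatTGACGtctcgcat
The Nr4a2 window of that table lies at an upstream start from which little RNA was read, since only 51 of the 802 listed Nr4a2 cytosines lay upstream of transcript Nr4a2-201 and none of them had over 30 reads. The window of the same length at the Nr4a2-201 start holds the full CRE (TGACGTCA, its own reverse complement), which 1.79% of the promoters hold, and it overlaps 2 of the 3 short matches there.
Nr4a2, chr2:57115070-57115093, minus strand: cccagtcgTGACGTCAggtcggaa
The NGFI-B response element (AAAGGTCA or TGACCTTT) was in none of these windows and in 1.51% of all promoters.

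The first question was how far the 3 transcripts rose and how long they stayed up. Coverage was compared over the cytosines of a gene that were listed in all 6 libraries, as the mean number of reads over a cytosine divided by a scale factor of the library (0.867 to 1.15). As a depth per position it does not grow with transcript length. It rests on 6 cytosines in Nr4a1, 4 in Nr4a2, and 54 in Nr4a3. The test was edgeR's quasi-likelihood test over 3264 genes with Benjamini-Hochberg adjustment, and the 2 h and 6 h comparisons share the 0 h libraries. All 3 genes were higher at 2 h and at 6 h than at 0 h, and all 3 were lower at 6 h than at 2 h. Without the 6 h replicate 1 library the log2 changes at 6 h were 4.87, 2.70, and 2.94 against 0 h and −1.24, −2.21, and −0.46 against 2 h for Nr4a1, Nr4a2, and Nr4a3, all of them still called.

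Nr4a1 had the lowest coverage of the 3 before depolarization and the largest rise. Its scaled coverage in the silenced libraries was 47.0 and 49.97 reads, the 2 h libraries had 3128 and 3433, and the 6 h libraries had 1408 and 1419. The groups did not overlap, and each pair of replicates lay close together against the distance between times. With 2 libraries against 2, an exact two-sided permutation test cannot go below p = 0.333. The share of all genes without overlap was not counted. Separation is therefore only a description, here and for Nr4a2 and Nr4a3. The means were 48.5 ± 2.09, 3280.2 ± 216, and 1413 ± 7.75 reads (SD, n = 2), which is 67.6-fold higher at 2 h than at 0 h and 29.1-fold higher at 6 h. On the log2 scale the change was 6.09 ± 0.0952 (SE) at 2 h (edgeR adjusted p = 1.31e-06) and 4.88 ± 0.0951 at 6 h (edgeR adjusted p = 4.46e-06).

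Nr4a2 rose less and fell back further. Its silenced libraries had 70.8 and 76.1 reads, its 2 h libraries 2190.45 and 2154, and its 6 h libraries 504 and 481, again without overlap. The means were 73.4 ± 3.79, 2172 ± 25.6, and 492 ± 16.0 reads (SD, n = 2). The gene was 29.6-fold higher at 2 h (log2 change 4.89 ± 0.0810, edgeR adjusted p = 1.31e-06) and 6.71-fold higher at 6 h (2.75 ± 0.0839, edgeR adjusted p = 1.26e-05).

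Nr4a3 was the most abundant of the 3 in silenced neurons and the one that declined least. Its silenced libraries had 302 and 303 reads, its 2 h libraries 3241 and 3067, and its 6 h libraries 2502 and 2341. No 2 groups overlapped. The means were 302 ± 0.465, 3154 ± 123, and 2421 ± 114 reads (SD, n = 2), or 10.4-fold higher at 2 h (3.38 ± 0.0735, edgeR adjusted p = 2.79e-06) and 8.01-fold higher at 6 h (3.002 ± 0.0729, edgeR adjusted p = 4.63e-06). The size of the rise depended on the cytosines used. The median over all cytosines listed in a library gave larger log2 changes, 4.22 at 2 h and 3.62 at 6 h.

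**Figure D1:**
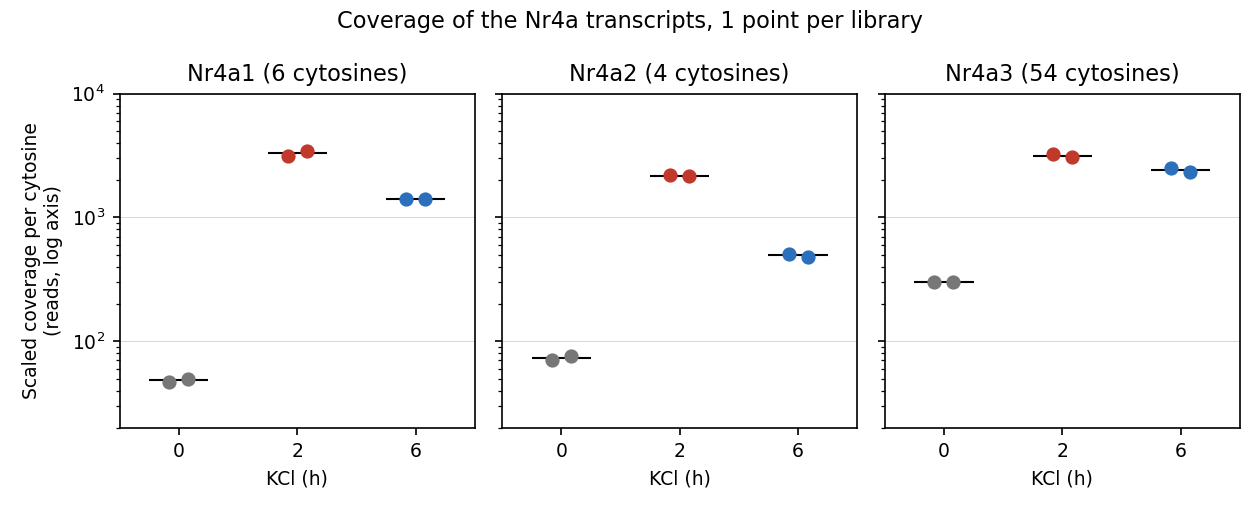
Scaled coverage per cytosine (reads, log axis) of Nr4a1, Nr4a2, and Nr4a3 against hours of KCl. Each point is a library and each black line the mean of the 2 replicates; the replicates lie on top of each other at most times, Nr4a2 drops most from 2 h to 6 h (2172 to 492 reads), and Nr4a3 least (3154 to 2421 reads).

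Of all genes tested, 13.3% were called higher at 2 h than at 0 h and 30.9% were called higher at 6 h, with median log2 changes near 0 (−0.03 and 0.00). Against these, 3 of 3 Nr4a genes were called in both comparisons. Ordered by log2 change from 0 h to 2 h, Nr4a1, Nr4a2, and Nr4a3 held places 2, 3, and 4 among 3264 genes, and from 0 h to 6 h they held places 2, 6, and 4. Genes without 3 cytosines listed in all 6 libraries, among which are many that are off in silenced neurons, have no place in this order.

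Between 2 h and 6 h the 3 genes parted. Nr4a2 kept 22.7% of its 2 h coverage at 6 h, Nr4a1 kept 43.1%, and Nr4a3 kept 76.8%. The log2 changes were −2.14 ± 0.0647 for Nr4a2 (edgeR adjusted p = 1.06e-04), −1.21 ± 0.0673 for Nr4a1 (1.87e-04), and −0.38 ± 0.0640 for Nr4a3 (3.64e-03). In this comparison 26.3% of all genes were called lower. Cell type markers moved in the same comparisons, by less than Nr4a1 and Nr4a2, and are given with the gene lists. Nr4a2 had the lowest log2 change of all 3264 genes tested, Nr4a1 the 16th lowest, and Nr4a3 the 501st lowest. When the median over all cytosines listed in a library was taken in place of the matched cytosines, these declines were of the same direction but no longer called (edgeR adjusted p = 0.0817, 0.140, and 0.262). That fit called 0 of 11258 genes in this comparison.

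The balance among the 3 transcripts differed between the times. The log2 ratio of Nr4a1 to Nr4a2 was −0.59 and −0.61 in the silenced libraries, 0.51 and 0.67 after 2 h, and 1.48 and 1.56 after 6 h. At 0 h both libraries had less Nr4a1 than Nr4a2, and at 2 h and 6 h all 4 had more. Nr4a1 against Nr4a3 stood at −2.68 and −2.60 in silenced neurons, at −0.05 and 0.16 after 2 h, and at −0.83 and −0.72 after 6 h, so that only at 2 h did the replicates lie on both sides of equality. Nr4a2 against Nr4a3 stood at −2.09 and −1.99 in silenced neurons, −0.57 and −0.51 after 2 h, and −2.31 and −2.28 after 6 h, back near its value before KCl. The order of levels at 0 h was Nr4a3, Nr4a2, Nr4a1, and at 6 h it was Nr4a3, Nr4a1, Nr4a2, with no overlap of neighbours in the 2 libraries of a time. At 2 h Nr4a1 and Nr4a3 did not differ beyond their spread over these cytosines. Ratios between genes depend on the positions compared, since coverage varied along the transcripts. Measured through the cytosines shared with the 2 h replicate 1 library, Nr4a1 was below Nr4a3 in both 2 h libraries. The values were 2308 against 2720 reads and 1978 against 2167. Over CDS cytosines listed in all 4 stimulated libraries, Nr4a1 had 2924 and 3000 scaled reads at 2 h, and Nr4a3 had 3720 and 3646. The ratios are given as a description, and their differences between times were not tested.

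The decline was also read along the transcripts, from cytosines listed in all 4 stimulated libraries. Nr4a1-201, Nr4a2-201, and Nr4a3-201 (GENCODE M21) span 2477, 3568, and 5720 bases in 7, 8, and 8 exons. The genes lie at chr15:101254269-101274795 on the plus strand, chr2:57106830-57124003 on the minus strand, and chr4:48045153-48086447 on the plus strand. In Nr4a1, 58 such cytosines kept between 39.2% and 50.2% of their 2 h coverage (median 44.6%), and all of them were in the CDS. In Nr4a2, 39 cytosines kept between 19.2% and 29.2% (median 23.6%). By segment, 5 cytosines of the Nr4a2 5′ UTR kept 22.8%, 33 of the CDS kept 23.8%, and 1 of the 3′ UTR kept 22.1%. The ranges of Nr4a1 and Nr4a2 did not overlap. Nr4a3 was less even, with 413 cytosines between 44.2% and 99.3% (median 77.4%, quartiles 72.0% and 80.1%), but its segments were alike, with 79.7% in the 5′ UTR (70 cytosines), 78.3% in the CDS (212), and 75.8% in the 3′ UTR (131). Without the 6 h replicate 1 library the medians were 44.5%, 23.6%, and 76.4%. Cytosines of a gene share their libraries and reads, and they are not replicates of the condition.

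**Figure D2:**
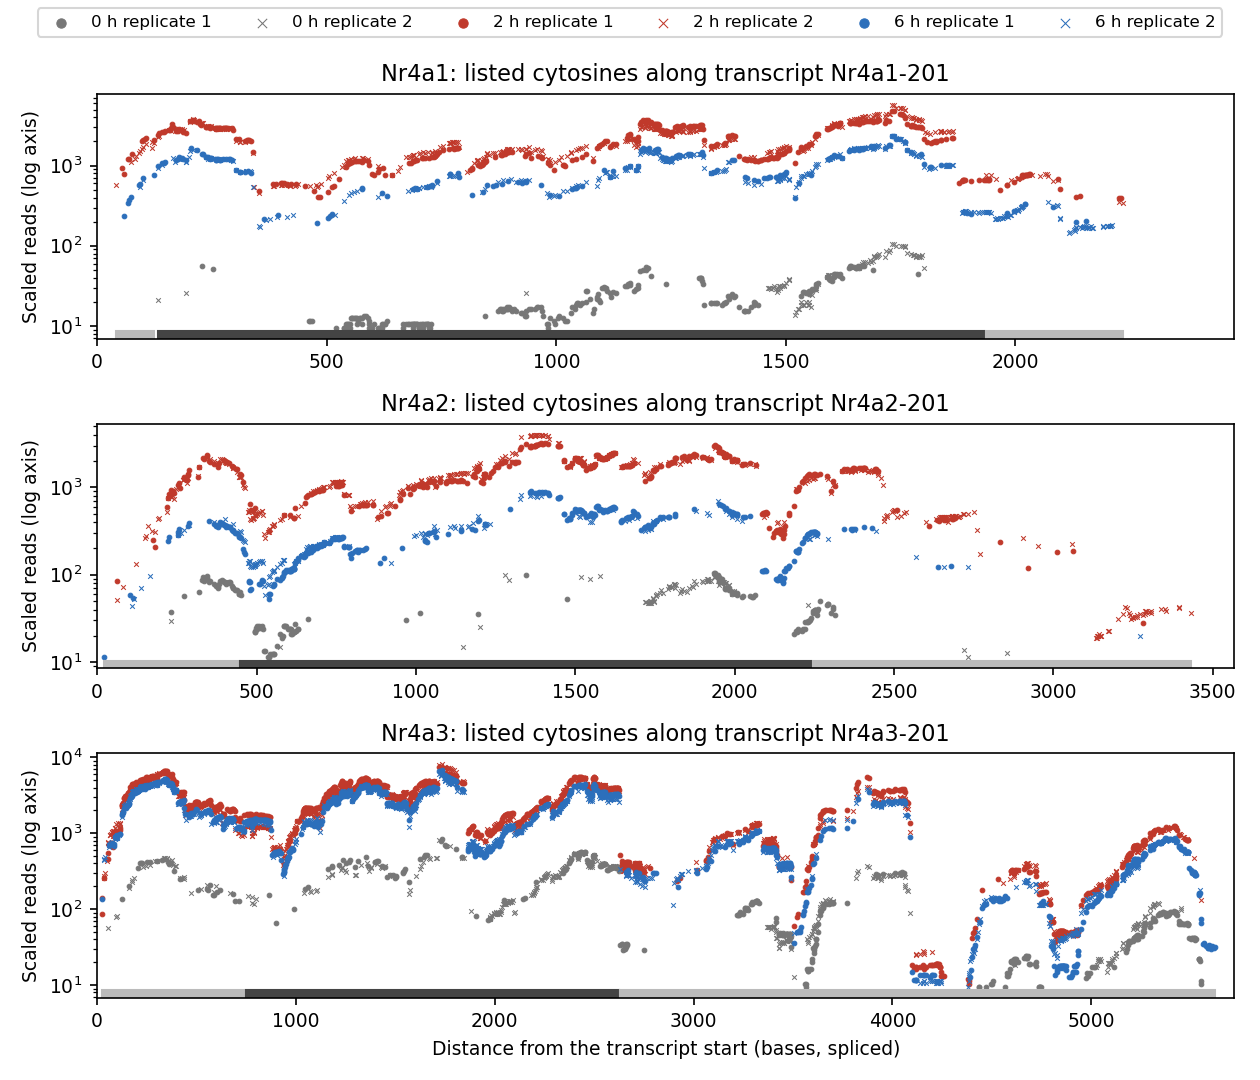
Scaled reads (log axis) at each listed cytosine against its distance from the start of the spliced transcript, for 0 h (grey), 2 h (red), and 6 h (blue), with circles for replicate 1 and crosses for replicate 2; the strip at the bottom marks the CDS in dark and the UTRs in light grey. The 6 h points run below the 2 h points at a near constant distance along Nr4a1 and Nr4a2, while in Nr4a3 they nearly meet.

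Coverage along Nr4a3 was uneven in the same order at 2 h and 6 h. After 2 h the 3′ UTR cytosines had 1004 and 890.1 scaled reads, against 3720 and 3646 in the CDS and 4400.4 and 4136 in the 5′ UTR. After 6 h the 3′ UTR had 729 and 707 reads, the CDS 2959.5 and 2809.8, and the 5′ UTR 3398 and 3404.

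For each gene, the 5 genes with the most similar pattern were taken by Pearson's r over log2 scaled coverage in the 6 libraries. The points are 6 libraries in 3 pairs of replicates, so r says little beyond the order of the 3 times. For Nr4a1 they were Ip6k2, an inositol hexakisphosphate kinase, the AP-1 subunit Fosl2, the bZIP repressor Nfil3, the zinc finger protein Zfand5, and the RNA-binding protein Hnrnpa2b1 (r from 0.996 to 0.999). For Nr4a2 they included Mcl1, a survival factor of the Bcl2 family, Rsrp1, Btg1, and the choline kinase Chka (r from 0.989 to 0.998). For Nr4a3 they were Nfil3, the stress response factor Atf4, Fos, the sterol enzyme Sqle, and Fosl2 (r from 0.9985 to 0.9996). Similar shape did not mean similar size. Hnrnpa2b1 had a log2 change of 0.35 at 2 h and Mcl1 of 0.62, against 6.09 for Nr4a1 and 4.89 for Nr4a2. From 2 h to 6 h the genes named beside Nr4a2 had log2 changes between −0.58 (Chka) and −0.30 (Mcl1), against −2.14 for Nr4a2.

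Other genes of the pathway were counted from lists. Few of them had 3 cytosines in all 6 libraries, and they were therefore also measured through the cytosines they shared with the 2 h replicate 1 library, each library as a ratio to it (edgeR over 7189 genes, of which 17% were called higher and 20.1% lower at 2 h, 33.2% higher and 33.5% lower at 6 h against 0 h, and 31.7% higher and 30.9% lower from 2 h to 6 h). Among other nuclear receptors, 5 of 36 could be tested in this way. From 0 h to 2 h, 1 was called higher and 1 lower, with a median log2 change of −0.04 beside −0.02 over all genes. The one called higher was Nr2f1 (COUP-TFI, which patterns the cortex), at 0.40 ± 0.0672, and it went on to 1.45 ± 0.0664 at 6 h (edgeR adjusted p = 0.00433 and 1.49e-05). Nr2c2 was called lower at 2 h (−0.25 ± 0.0733, edgeR adjusted p = 0.0371). Rxrb, a retinoid X receptor and dimer partner of Nr4a1 and Nr4a2, had −0.17 ± 0.0723 and was not called at 2 h (0.109). At 6 h against 0 h 1 receptor was higher (Nr2f1) and 2 were lower, Rxrb with −0.47 ± 0.0743 (0.00136) and Nr2c2 with −0.27 ± 0.0738 (0.0147). Thra (0.11 at 2 h, edgeR adjusted p = 0.333) and Nr1h2 (−0.04, 0.814) were tested and were called in no comparison. The remaining receptors of the list could not be tested.

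Of the immediate early comparators 5 of 16 could be tested. At 2 h 4 of them were called higher with none lower (median 2.99), at 6 h against 0 h 4 were higher and 1 lower (median 2.33), and from 2 h to 6 h all 5 were lower (median −0.82, against 0.00 over all genes). At 2 h the AP-1 genes Fos and Junb had log2 changes of 7.197 and 5.37 (edgeR adjusted p = 7.81e-07 and 2.75e-05), Ier2 had 2.99 (4.41e-06), and Fosl2 had 2.33 (1.37e-05). Jun, the partner of Fos in AP-1, was not called at 2 h with −0.14 (0.326), and was the one called lower at 6 h against 0 h, with −1.37 (7.72e-05). From 2 h to 6 h the log2 changes were −0.82 for Fos, −1.54 for Junb, and −1.23 for Jun.

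Among upstream regulators 15 of 18 could be tested, of which 4 were called higher and 3 lower at 2 h (median 0.05). Crem, a CREB family gene that also encodes the repressor ICER, had the largest rise with 3.84 ± 0.170 (edgeR adjusted p = 3.27e-05), and Srf rose by 1.01 ± 0.0889 (4.05e-04). Elk1, a partner of SRF, fell by 0.93 on the log2 scale (3.77e-04), and Hdac5, which represses MEF2 targets, rose by 0.43 (0.00342), while Hdac4 of the same class fell by 0.43 (0.0107). At 6 h both were higher than at 0 h, Hdac5 by 0.85 (7.04e-05) and Hdac4 by 0.79 (2.12e-04). At 6 h against 0 h, 9 of the 15 were higher and 3 lower (median 0.62). Of the corepressors and partners 9 of 11 could be tested, and only Rcor1 (CoREST, recruited by Nr4a2) was called at 2 h, at −0.46 ± 0.0872 (edgeR adjusted p = 0.0073). At 6 h against 0 h 4 of the 9 were called higher and none lower (median 0.14), Rcor1 among the higher ones at 0.25 ± 0.0824 (0.0307). Over the matched cytosines, where 5 of these genes could be tested, 1 was higher and 1 lower at 6 h (median −0.10), beside 30.9% and 31.7% of all 3264 genes, the lower one being the histone deacetylase Hdac3 at −0.26 (0.0378). Markers of cell types also moved by the same ratio measure, and their part in the Nr4a results was not tested. Of 9 neuronal markers 2 were higher and 1 lower at 2 h, and 3 were higher and 3 lower both at 6 h against 0 h and from 2 h to 6 h. Gad1 and Gad2 of inhibitory neurons were among the higher ones, with log2 changes of 1.29 and 1.25 at 6 h against 0 h and of 0.80 and 0.97 from 2 h to 6 h. The lower ones were Tubb3 (−1.16 at 6 h against 0 h, and −0.90 at 2 h), Slc17a7 (−0.45), and Rbfox3 (−0.23). Of 4 astrocyte markers 1 was lower at 2 h, and 3 were lower in each of the other comparisons (median −0.40 at 6 h against 0 h and −0.26 from 2 h to 6 h). The microglial Cx3cr1 was lower throughout (−0.46, −0.77, and −0.31), and from 2 h to 6 h the oligodendrocyte markers Mbp and Olig2 (1.06 and 0.51) and the progenitor marker Nes (0.64) were higher. None of the 7 dopamine neuron targets of Nr4a2 could be tested. Of these, Slc18a2 and Pitx3 were listed in no library, and Th was listed at no more than 12 cytosines in any library.

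The second question was whether the Nr4a transcripts carried m5C. No Nr4a1 or Nr4a2 cytosine passed the standard filter (20 or more reads, 6 or more of them unconverted, and a level of 10% or more) in any of the 6 libraries. Nr4a3 had 1 passing cytosine in the 0 h replicate 1 library and 22 in the 6 h replicate 1 library, with 0 in the other 4 libraries. A test also required the cytosine to be listed in all 4 libraries compared, and none of the passing Nr4a3 cytosines was. In each comparison 0 Nr4a cytosines could therefore be tested. Over all positions tested 9.27%, 7.11%, and 12.9% were called between 2 h and 0 h, 6 h and 0 h, and 6 h and 2 h (Fisher's exact test on summed reads, Benjamini-Hochberg adjustment). These background counts moved with single libraries. Against 555 of 4296 called between 6 h and 2 h, there were 244 of 3765 without 6 h replicate 1 and 1024 of 4204 without 6 h replicate 2. Against 302 of 4250 between 6 h and 0 h, there were 796 of 4191 without 6 h replicate 2, 194 of 3650 without 6 h replicate 1, and 179 of 4132 without 0 h replicate 1, and against 336 of 3626 between 2 h and 0 h, 202 of 3401 without 0 h replicate 1. The Nr4a genes had 0 cytosines tested in each of these. Under a looser filter, with 3 or more unconverted reads and a level of 5% or more in 1 library, 6 of 6 Nr4a cytosines tested were called at 2 h against 0 h and 5 of 15 at 6 h against 0 h, beside 9.82% and 7.36% of all positions. All of these were in Nr4a3 and had passed the filter only through the 0 h replicate 1 library, so that a lower level under KCl was fixed by the choice and nothing is read from these calls.

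The Nr4a3 cytosine of the 0 h replicate 1 library, at position 48086214 in the 3′ UTR, had 8 of 66 reads unconverted (12.1%). It had 1 of 939 reads in the 2 h replicate 1 library and 8 of 533 in the 6 h replicate 1 library, and was not listed in any replicate 2 library. The 22 Nr4a3 cytosines of the 6 h replicate 1 library were not scattered. They lay at chr4:48086278-48086346 in the 3′ UTR, 99 bases from the transcript end, and they were all of the 22 cytosines in a stretch of 69 bases. Each had 6 to 8 unconverted reads of 28 to 70, or 11.4% to 27.6%. None of them was listed in the 6 h replicate 2 library, so without the 6 h replicate 1 library no Nr4a3 cytosine passed at 6 h. The first 2 of the stretch, 48086278 and 48086279, were also listed in the 0 h replicate 1 library, with 3 of 12 and 3 of 11 reads unconverted, and 48086278 had 1 of 128 reads in the 2 h replicate 2 library. The 6 h replicate 1 library is the one with 0.115% unconverted reads at deep cytosines, and the part of this in the result was not tested. The study's filter on reads with several unconverted cytosines needs the reads and was not repeated here.

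Below that filter, the levels of the Nr4a genes were close to those of other genes. Over the 465 Nr4a cytosines with at least 200 reads in all 4 stimulated libraries, the median of the mean level was 0.106%, against 0.129% over 326271 cytosines of all genes. By gene the medians were 0.116% in Nr4a1 (58 cytosines), 0.290% in Nr4a2 (33), and 0.0966% in Nr4a3 (374). Since a listed cytosine has at least 1 unconverted read, a lower coverage as in Nr4a2 at 6 h carries a higher lowest possible level. No cytosine of Nr4a1 or Nr4a3 reached a mean of 1%, the highest being 0.362% and 0.781%.

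One cytosine of Nr4a2 stood apart. It lies at position 57114784 of chromosome 2, minus strand, in the 5′ UTR within exon 1 of Nr4a2-201, and is the first sequence printed above. In the 2 h libraries 90 of 1235 reads and 72 of 977 reads were unconverted, a level of 7.29% (95% Wilson confidence interval 5.97 to 8.87) and 7.37% (5.89 to 9.18). In the 6 h libraries 25 of 292 reads (8.56%, 5.87 to 12.3) and 20 of 297 reads (6.73%, 4.40 to 10.2) were unconverted. The 4 intervals overlap, and they cover counting error only, since copies made by PCR were not separated.

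The levels of this Nr4a2 cytosine at 2 h and 6 h are given as a description, beside a coverage of the gene that fell to 22.7%. The cytosine was chosen for the highest lowest level of the 4 libraries, which favours a level that is high at both times. The interval and the test below use those same values, so no conclusion of an unchanged level is drawn from them. It was 7.33% ± 0.0580 at 2 h and 7.65% ± 1.29 at 6 h (SD, n = 2). Summed reads gave 162 of 2212 and 45 of 589, a difference of 0.316 percentage points with a 95% interval from −1.89 to 2.95. Under the looser filter the cytosine could be tested, with p = 0.791 and an adjusted p of 1 (Fisher's exact test), where 10.1% of 7337 positions were called.

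The cytosine was the only one of the 465 with a level of at least 5% in all 4 libraries. Over all genes 429 of 326271 cytosines (0.131%) had this. The next base along the transcript, position 57114783, was the only other cytosine among the 13 around it listed in all 4 libraries, with 0.547% and 0.885% at 2 h and 2.56% and 1.26% at 6 h. Each of the other 11 was listed in at most 1 of the 4 libraries. The cytosine next in order, by the lowest of its 4 levels and by their mean, was the second one printed above, 57111858 in exon 3 of the CDS, with 1.31% and 0.735% at 2 h and 3.06% and 1.29% at 6 h.

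G at +2 to +4, which the 57114784 cytosine has, was found in 10 of the 465 deep cytosines (2.15%). The median level of the 10 was 0.165% and that of the other 455 was 0.106%. At 0 h the 57114784 cytosine was not listed. The nearest listed cytosines had 60 reads in replicate 1 (16 bases away) and 26 reads in replicate 2 (22 bases away). The coverage of the 57114784 cytosine itself at 0 h is not known from the lists, so no level or limit is given for it there.

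**Figure D3:**
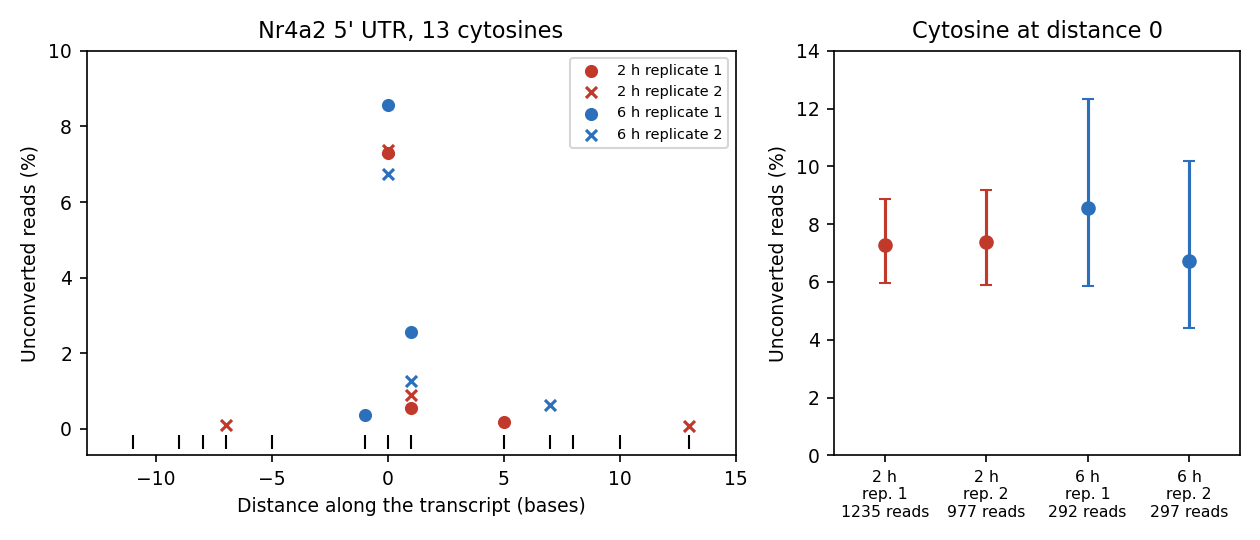
Left, unconverted reads (%) at the 13 cytosines (ticks) around position 57114784 in the Nr4a2 5′ UTR against the distance along the transcript in bases, with a point for each of the 4 stimulated libraries in which a cytosine was listed. Right, the level at distance 0 in each library with its 95% Wilson interval; the 4 values lie between 6.73% and 8.56% with overlapping intervals.

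At 0 h the lists say more about depth than about methylation. Nr4a1 had 238 and 84 listed cytosines in the silenced libraries, 410 and 390 after 2 h, and 207 and 366 after 6 h. The same libraries listed 149 and 82, 408 and 510, and 361 and 168 cytosines of Nr4a2. For Nr4a3 they listed 381 and 371, 1082 and 960, and 1049 and 975. Only in Nr4a1 did a 6 h library list fewer cytosines than a 0 h library. At 0 h 89.5% and 94.0% of the listed Nr4a1 cytosines rested on 1 unconverted read, as did 94.0% and 93.9% of those of Nr4a2 and 57.7% and 71.4% of those of Nr4a3. Many listed cytosines also sat side by side, with 79.0% and 84.5% of the 0 h cytosines of Nr4a1 in runs of 10 or more consecutive cytosines of the transcript. In Nr4a2 it was 75.2% and 82.9%, and in Nr4a3 68.5% and 76.0%. Such runs were not limited to 0 h. The 4 stimulated libraries had between 0% and 66.7% in Nr4a1, between 34.7% and 76.4% in Nr4a2, and between 55.7% and 64.5% in Nr4a3.

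**Figure D4:**
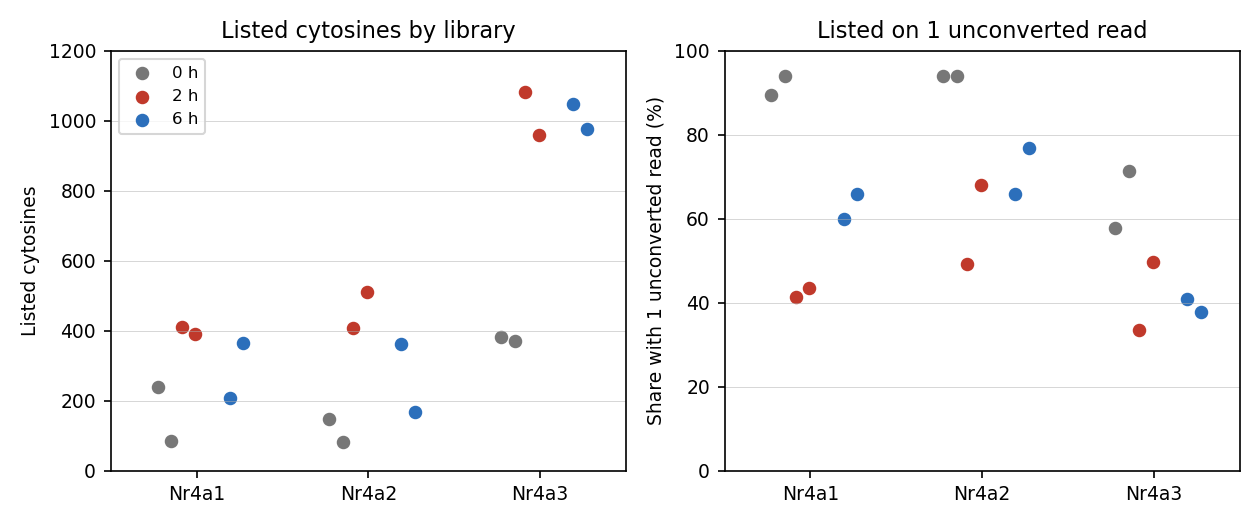
Left, the number of listed cytosines of each gene in each library (1 point per library, 0 h grey, 2 h red, 6 h blue). Right, the share of them (%) listed on 1 unconverted read; the 0 h points of Nr4a1 and Nr4a2 lie between 89.5% and 94.0%, above their 2 h and 6 h points.

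The unconverted share of each gene, over the cytosines listed in all 6 libraries, was bounded in the same way. For Nr4a1 the silenced libraries had 2.03% and 2.69%, where 1 read for each cytosine already gives 2.03% and 2.31%. The 2 h libraries had 0.0835% and 0.101%, and the 6 h libraries had 0.112% and 0.0674%. For Nr4a2 the silenced libraries had 1.35% and 1.89% (lowest possible 1.35% and 1.52%), the 2 h libraries 0.0895% and 0.0723%, and the 6 h libraries 0.262% and 0.348%. For Nr4a3 the silenced libraries had 0.404% and 0.657% (lowest possible 0.316% and 0.381%), the 2 h libraries 0.104% and 0.0890%, and the 6 h libraries 0.107% and 0.104%. The same holds for single cytosines. The Nr4a3 cytosine printed above, at position 48085943, had 1 unconverted read in each silenced library, of 45 and 52 reads. It had 10 of 789 and 5 of 598 reads after 2 h, and 2 of 429 and 1 of 399 after 6 h. The Nr4a1 and Nr4a2 cytosines printed beside it had 1 read each in the silenced libraries, and 1 to 6 unconverted reads of 555 to 3832 in the stimulated ones.

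Limma called the share of all 3 genes lower at 2 h than at 0 h (log2 differences −4.77, −4.39, and −2.43, adjusted p = 8.48e-04, 8.48e-04, and 0.0222), where 0.184% of 3264 genes were called lower, and lower at 6 h than at 0 h (−4.79, −2.46, and −2.29, adjusted p = 0.00165, 0.0289, and 0.0326), where 0.153% were. The 0 h values of Nr4a1 and Nr4a2 stand at or just above the lowest that their coverage allows, and the listing of cytosines by itself lowers this share as coverage rises. No loss of methylation is read from it. Leaving out 1 replicate ended the calls of Nr4a3 at both times and of Nr4a2 at 6 h, whichever library was left out (adjusted p from 0.0515 to 0.184).

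From 2 h to 6 h no share was called with the pseudocount of 0.5, and the lowest possible share differed between these times too. For Nr4a2 it was 0.0397% and 0.0482% at 2 h, and 0.209% and 0.199% at 6 h. Nr4a1 in the 6 h replicate 2 library, at 0.0674%, stood at its lowest possible share. No change of methylation is read from these differences. The log2 differences were −0.02 for Nr4a1, 1.93 for Nr4a2, and 0.13 for Nr4a3 (limma adjusted p = 0.986, 0.223, and 0.862). Over all genes limma called 0% higher (220 genes at an unadjusted p of 0.05). With a pseudocount of 5 only 1 of 3264 genes was called, Nr4a2 with 2.04. With the cytosines listed in the 4 libraries compared, the differences were 0.65, 1.13, and 0.32 (adjusted p = 0.326, 0.193, and 0.579), with 0% of 4782 genes called higher (352 at an unadjusted p of 0.05).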

How the data were processed

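Poly(A) RNA from cultured cortical neurons was bisulfite-treated and sequenced in 6 libraries. Reads had been trimmed by the authors (Trim Galore), mapped to GRCm38 by meRanRh of meRanTK, and passed to meRanCall for the candidate cytosines. The submitters' processing notes name R 4.1.1. For each library they deposited read counts for each listed cytosine (coverage, unconverted, and other bases) and the methylation level as a fraction, without normalization. Reads of the spiked-in Xef control and the filters on single reads were not used here.

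The counts were used as deposited, for reference C in state M. The fraction differed from that of the counts at 0 positions (tolerance 0.00051). Samples were grouped by the labels' KCl time. Mean coverage over cytosines listed in all 6 libraries (at least 3, mean of at least 10 reads) was rounded and tested with edgeR 4.0.16 (TMM) over 3264 genes. These values are coverage at listed cytosines and no gene counts. Unconverted shares were tested with limma 3.58.1 on log2((methylated + 0.5)/(unmethylated + 0.5)). Single cytosines were tested with Fisher's exact test (scipy 1.17.1). The threshold was an adjusted p of 0.05 throughout. The edgeR test, the limma test of shares, and Fisher's exact test were tried on simulated data, and the tests used only as alternatives were not. The replicates are biological as described by the study.

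The genes, lists, and most settings were chosen with earlier results of these data known. Named were the 3 genes, their cytosines past the standard filter, the 3 highest cytosines of each gene listed in all 6 libraries (the highest is printed), the 5 most alike genes (1 of those of Nr4a2 is not reported here), and listed genes with the smallest adjusted p. Alternatives were other normalizations and tools (DESeq2 1.42.0), cytosine sets, filters, pseudocounts, the replicate block, and leaving out each replicate. Annotation was GENCODE M21. Python 3.11.15, numpy 2.4.6, pandas 2.3.3, matplotlib 3.10.9, and R 4.3.3 were used.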

Additional observations from a re-analysis of the deposited data

How the results depend on the processing

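The coverage changes of the 3 genes kept their direction and stayed past the threshold under the alternatives run for each, with 1 exception. With at least 10 shared cytosines only Nr4a3 could be tested. From 2 h to 6 h, the median over all listed cytosines gave log2 changes of −1.15 for Nr4a1, −2.16 for Nr4a2, and −0.60 for Nr4a3, none of them called. That fit called 0 of 11258 genes in this comparison, and the cause was not tested. Without each replicate in turn, where the lone library of a time is assumed to vary like the others, the changes from 0 h to 2 h ranged from 6.02 to 6.17, from 4.83 to 4.94, and from 3.35 to 3.42, and those from 2 h to 6 h from −1.30 to −1.15, from −2.21 to −2.13, and from −0.46 to −0.36. Same-numbered libraries deviated together between 0 h and 2 h (r = 0.448 over 3264 genes) but not between 6 h and either (−0.230 and −0.214), so the numbers were not taken to pair samples. With the replicate block, the coverage of Nr4a3 changed by 3.38 at 2 h and no coverage call of the 3 genes was lost, while the unconverted share of Nr4a3 from 0 h to 6 h (−2.29) was no longer called. With cytosines listed in the 4 libraries compared, the share of Nr4a3 from 0 h to 2 h (−2.54) was not called, and that of Nr4a1 from 2 h to 6 h turned to 0.65. With a pseudocount of 5, the latter was 0.34, and that of Nr4a2 from 2 h to 6 h was called (2.04). It was the only 1 of 3264 genes called in that fit, and its lowest possible share was higher at 6 h than at 2 h. Leaving out a replicate, the share of Nr4a1 from 2 h to 6 h ranged from −0.37 to 0.33. For the shares of Nr4a2 from 0 h to 6 h (−2.69 to −2.22), of Nr4a3 from 0 h to 2 h (−2.78 to −2.08), and of Nr4a3 from 0 h to 6 h (−2.65 to −1.94), no such fit called them, the 6 h replicate 1 library included. With at least 3 methylated reads and a level of 5%, 6 of the 6 Nr4a cytosines tested were called lower at 2 h than at 0 h and 5 of 15 at 6 h (9.82% and 7.36% of all positions were called), against 0 otherwise. The tested ones had passed only through 0 h replicate 1, which fixes the direction. The difference at the Nr4a2 cytosine ranged from −0.59 to 1.24 percentage points without each replicate, and was −0.59 without 6 h replicate 1. Depth limits every statement on methylation at 0 h.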
